A study of Sus scrofa with 10 samples.

Results

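Genes of antigen presentation were examined in the hypothalamus of Iberian x Landrace backcross pigs, 5 animals of high and 5 of low growth and fatness, called high and low pigs below. The genes asked for were 9, and were taken by name. Of the 25009 gene rows of the deposited table, 12 rows carried the name of 7 of these genes (SLA-DQA1, CIITA, B2M, TAP1, TAP2, PSMB8 and PSMB9). Matching by Ensembl identifier added SLA-DQB1, which the file calls SLA-DQB*G01, and a second row of TAP2, which the file calls TAP. In all, 8 genes in 14 rows were described, and CD74, the invariant chain of class II molecules, is not analysed here.

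The labels give both groups the same cross and tissue, and name no treatment, age or sex. Each gene row has 1 FPKM value per group (fragment counts scaled by transcript length and by library size) with a lower and an upper bound, printed in parentheses after the value. The group value is the authors' own, values per animal are not used here, and the differences below therefore have no replicate check and no p-value. The depth of each library is unknown. Since the RNA came from whole tissue, fewer cells of a type and less RNA per cell cannot be told apart.

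Antigen presentation works along 2 routes. In the class I route the proteasome cuts cytosolic proteins, the TAP1 and TAP2 transporter carries the peptides into the endoplasmic reticulum, and class I heavy chains paired with beta-2-microglobulin (B2M) show them to cytotoxic T cells on nearly all nucleated cells. In the class II route alpha and beta chains of the DR and DQ molecules take up peptides in endosomes and show them to helper T cells, mainly on macrophages, dendritic cells and B cells. In the brain, microglia and macrophages at vessels and meninges are the usual class II carriers, and CIITA is the factor that switches class II genes on. In pigs the complex of these genes is called SLA, for swine leukocyte antigen.

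Among the 8 genes the class II chains differed most. SLA-DQA1, the alpha chain of the DQ molecule, was at 14.8 FPKM (9.08 to 20.6) in high pigs and 41.5 FPKM (23.8 to 59.1) in low pigs. SLA-DQB1, the beta chain that pairs with it, was at 11.2 FPKM (6.90 to 15.4) in high pigs and 33.1 FPKM (19.1 to 47.2) in low pigs. Both genes were thus higher in low pigs, and for both the intervals of the groups did not overlap.

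The FPKM ratio of low over high was 2.80 for SLA-DQA1 and 2.96 for SLA-DQB1. From the nearest bounds of the groups the ratio would be 1.16 and 1.23, and from the farthest bounds 6.51 and 6.84. The alpha and beta chains kept nearly the same proportion, with SLA-DQA1 over SLA-DQB1 at 1.33 in high pigs and 1.25 in low pigs. On the scale of log2(FPKM + 1), used for all differences below and given as high minus low, the difference was -1.43 for SLA-DQA1 and -1.49 for SLA-DQB1. This scale understates the change of low genes. Of the 15281 rows whose 2 values averaged 1 FPKM or more, called tested rows here, 141 had a lower difference than SLA-DQA1 and 132 a lower one than SLA-DQB1.

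Among the 8 genes, 2 had intervals that did not overlap, SLA-DQA1 and SLA-DQB1, against 0.458% of tested rows in either direction, 0.432% with the higher value in low pigs and 0.0262% with the higher value in high pigs. The same 2 genes were at least 2-fold higher in low pigs, against 2.44% of tested rows. As deposited, the low group had the higher value for 8 of 8 genes and 14 of 14 rows, but 1 of the rows of TAP2 turned to the opposite sign after either scaling of the groups to each other. Of tested rows, 67.7% had the higher value in low pigs, and 63.6% of all rows above 0 did so without the filter, so the shared direction of the other genes is near what most genes show. The median difference of the 8 genes was -0.44, against -0.10 for all tested rows, and it was -0.31 for the 6 genes other than SLA-DQA1 and SLA-DQB1. The DQ chains resemble other class II chains in sequence, and the sources do not say how reads that match several of them were counted, so their levels are uncertain.

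**Figure D1:**
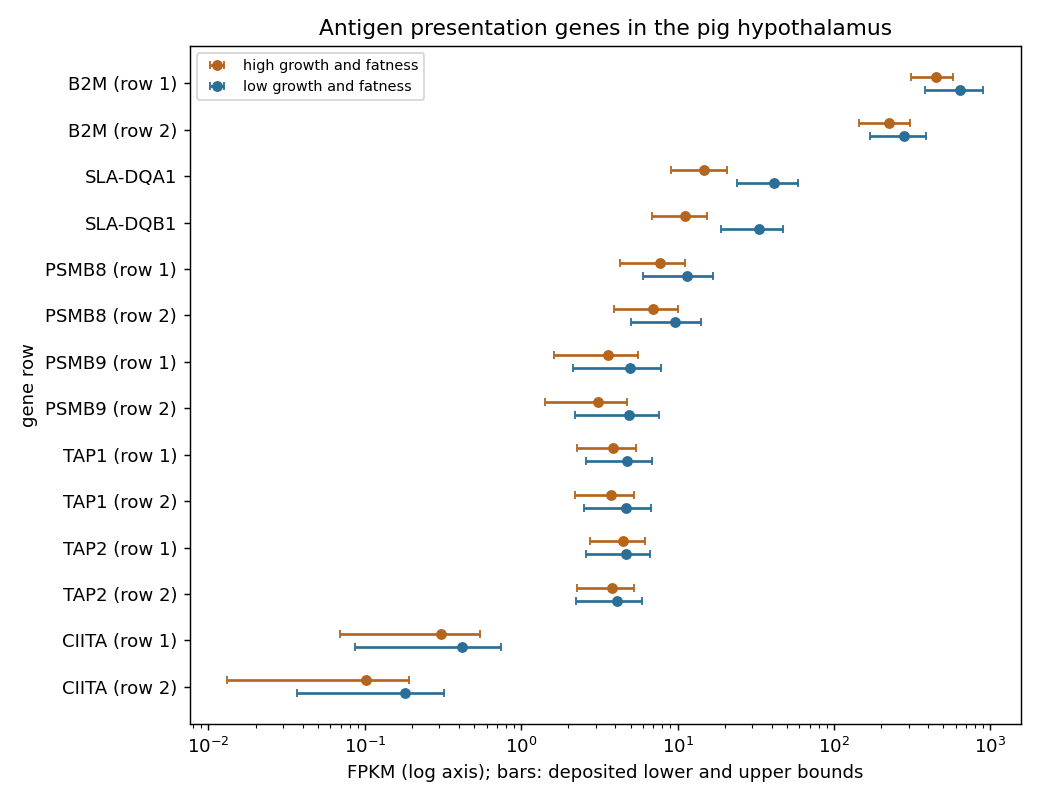
FPKM (log axis) of each gene row in the high (brown) and low (blue) group, with bars for the deposited bounds; where a gene has a pair of rows, the row with the higher mean comes first. The bars of the groups are separate for SLA-DQA1, at 14.8 and 41.5 FPKM, and for SLA-DQB1, at 11.2 and 33.1 FPKM, and overlap in the other rows.

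CIITA, the master regulator of class II genes, was hardly detected. Its row on chromosome 3 was at 0.102 FPKM (0.0132 to 0.191) in high pigs and 0.180 FPKM (0.0366 to 0.323) in low pigs. A second row on an unplaced scaffold had 0.305 FPKM (0.0688 to 0.541) against 0.416 FPKM (0.0859 to 0.747). Both rows were below the filter of 1 FPKM, and their intervals overlapped. Whether the level of CIITA differed along with SLA-DQA1 and SLA-DQB1 was not detectable from these values: by the bounds, the ratio of low over high of the chromosome 3 row could lie anywhere from 0.191 to 24.4.

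B2M, the light chain of all class I molecules, was the most abundant of the genes. It was at 446 FPKM (313 to 579) in high pigs and 636 FPKM (379 to 893) in low pigs, above 99.3% and 99.4% of the tested rows of each group. Its ratio of low over high was 1.43, with overlapping intervals, and 942 tested rows had a lower difference than its -0.51. A second row named B2M, on the same chromosome, was at 226 FPKM (145 to 306) against 280 FPKM (171 to 390), a ratio of 1.24. After quantile normalization, which gives both groups the same distribution of values, the differences of the rows shrank to -0.16 and -0.027.

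The immunoproteasome subunits PSMB8 and PSMB9 replace constitutive catalytic subunits of the proteasome when cells meet interferon. As deposited, their differences of -0.51 and -0.38 were near the -0.51 of B2M. After quantile normalization they were -0.42 and -0.32, against -0.16 for B2M. These values are those of 1 row per gene. The other row of PSMB8, PSMB9 and B2M had -0.41, -0.53 and -0.31 as deposited, so the order of these genes depends on the row. PSMB8 was at 7.71 FPKM (4.31 to 11.1) in high pigs and 11.4 FPKM (5.97 to 16.8) in low pigs, a ratio of 1.48. PSMB9 was at 3.60 FPKM (1.63 to 5.58) in high pigs and 4.98 FPKM (2.14 to 7.83) in low pigs, a ratio of 1.38. Both were higher in low pigs, and the intervals of the groups overlapped.

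The peptide transporter had the smallest ratios. TAP1, the first half-transporter, was at 3.85 FPKM (2.28 to 5.42) in high pigs and 4.74 FPKM (2.59 to 6.88) in low pigs, a ratio of 1.23. TAP2, its partner, was at 4.47 FPKM (2.76 to 6.18) in high pigs and 4.64 FPKM (2.60 to 6.69) in low pigs, a ratio of 1.04. The groups were nearly level for TAP2, and its difference of -0.05 as deposited became 0.04 after median-of-ratios scaling and 0.02 after quantile normalization. These overlaps do not show equal levels, since the bounds of TAP2 allow ratios from 0.421 to 2.42 and those of TAP1 from 0.479 to 3.02.

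FPKM is scaled by transcript length, so levels can be set side by side between genes. Taking 1 row per gene, the order in the high group was B2M, SLA-DQA1, SLA-DQB1, PSMB8, TAP2, TAP1, PSMB9 and CIITA, and neighbours in this order overlapped in their intervals except B2M with SLA-DQA1 and PSMB9 with CIITA. In the low group the interval of SLA-DQB1 also lay above that of the PSMB8 row, the next below it (33.1 against 11.4 FPKM), and PSMB9, TAP1 and TAP2 lay within overlapping bounds. B2M over SLA-DQA1 was 30.1 in high pigs and 15.3 in low pigs, by the B2M row with the higher mean. Summed over its 2 rows, B2M was at 671 against 917 FPKM, so this proportion depends on the use of a single row. SLA-DQA1 was above 71.8% of tested rows in high pigs and above 88.7% in low pigs, while TAP2 was above 35.0% and 34.5%.

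Apart from CIITA and B2M the genes lie together on chromosome 7 of build Sscrofa10.2, in the class II stretch of the SLA complex. SLA-DQA1 (ENSSSCG00000001456) spans 29164961 to 29170659 and SLA-DQB1 (ENSSSCG00000001457) spans 29180532 to 29188771. TAP2, PSMB8, TAP1 and PSMB9 follow in that order, and then the same names come again in the same order, about 155 kb further on. The first TAP2 row starts at 29257058 and the first PSMB9 row ends at 29288735, while the second TAP2 row starts at 29412164 and the second PSMB9 row ends at 29443909. The offset between the rows was 155.1 kb for TAP1 and TAP2, 155.4 kb for PSMB8 and 155.3 kb for PSMB9. RefSeq's gene table for the later build Sscrofa11.1 lists 1 gene each for TAP1, TAP2, PSMB8 and PSMB9, and the table of Ensembl identifiers holds only those of the first set. B2M differs from them, with 2 genes in RefSeq's table.

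The sets gave similar values. TAP1 was at 3.76 FPKM in the first set and 3.85 FPKM in the second in high pigs, and at 4.64 and 4.74 FPKM in low pigs. PSMB8 was at 6.96 and 7.71 FPKM in high pigs and at 9.56 and 11.4 FPKM in low pigs. The first set held 49.4% of the summed value of TAP1 in high pigs and 49.5% in low pigs, and 47.5% and 45.6% of that of PSMB8. The sources used here do not say how reads that match both sets were counted. The level of each of these genes is therefore uncertain, and each row may hold only part of it. Summed over both rows, TAP1 was at 7.60 against 9.38 FPKM, TAP2 at 8.25 against 8.74 FPKM, PSMB8 at 14.7 against 21.0 FPKM and PSMB9 at 6.69 against 9.90 FPKM. On these sums PSMB8 came above SLA-DQB1 in high pigs (14.7 against 11.2 FPKM), and in low pigs its 21.0 FPKM was within the bounds of SLA-DQB1, so the order of levels depends on the use of single rows. The ratios of low over high of these sums were 1.23, 1.06, 1.43 and 1.48, respectively. In each set and in the sums TAP2 had the smallest ratio and TAP1 the next, whereas PSMB8 and PSMB9 changed places between the sets.

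Between SLA-DRA1 and SLA-DOA this stretch holds 21 rows. Its 5 DR and DQ chain rows had ratios of low over high between 2.28 and 2.96. Of the 5, 3 had intervals that did not overlap, against 0.458% of tested rows. SLA-DRA1, the alpha chain of the DR molecule, which RefSeq gives as a synonym of SLA-DRA, was the third of them, at 17.2 FPKM (11.5 to 22.9) in high pigs and 41.0 FPKM (25.0 to 57.1) in low pigs. The beta chain row SLA-DRB1 was at 3.48 FPKM (1.57 to 5.39) in high pigs and 8.26 FPKM (3.82 to 12.7) in low pigs. The row called SLA-DRB was at 15.0 FPKM (9.48 to 20.6) in high pigs and 34.3 FPKM (20.4 to 48.2) in low pigs, and both rows had overlapping intervals. The other 13 tested rows of the stretch had a median ratio of 1.37, and 0 had separate intervals. BRD2, a chromatin-binding protein encoded between SLA-DMA and SLA-DOA, was at 43.6 against 49.8 FPKM.

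**Figure D2:**
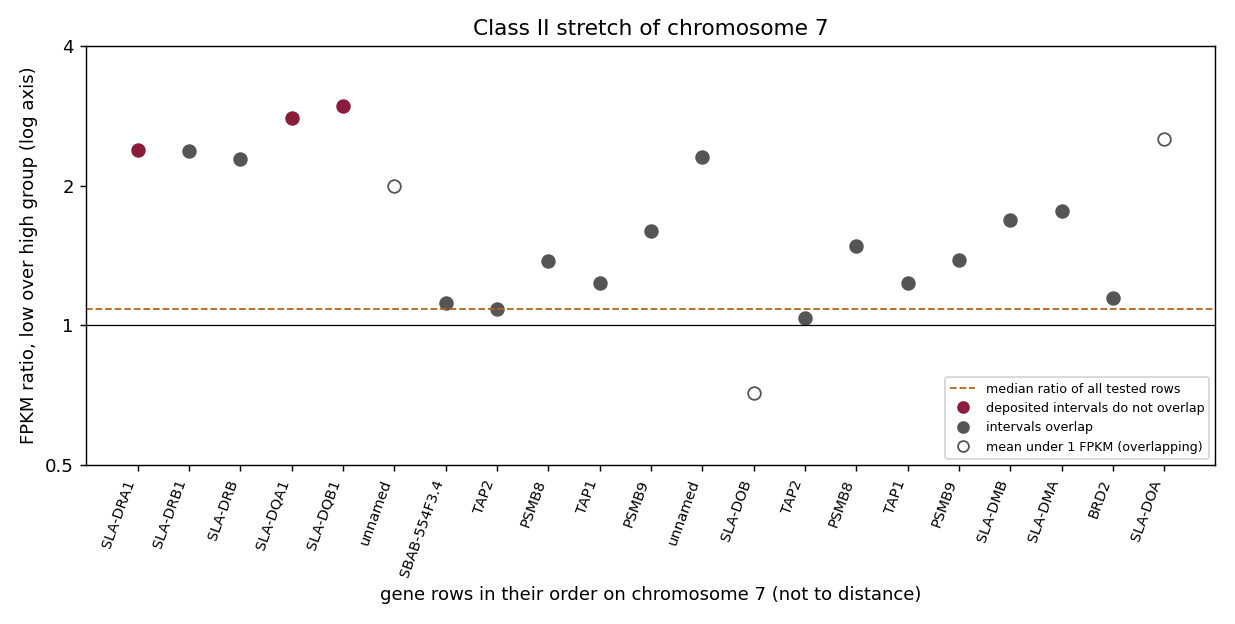
Ratio of the low over the high group's FPKM (log axis) for the 21 gene rows between SLA-DRA1 and SLA-DOA, in their order on chromosome 7; filled points are tested rows, open points rows with a mean under 1 FPKM, and the dashed line is the median ratio of all tested rows, 1.08. The DR and DQ rows at the left lie between 2.28 and 2.96, while the rows of TAP2, PSMB8, TAP1 and PSMB9 appear as 2 sets between 1.04 and 1.59; the lower TAP2 point turned below 1 after scaling.

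The peptide editors of the class II route differed less than its chains. SLA-DMA and SLA-DMB, which together help class II molecules exchange peptides, also had overlapping intervals. SLA-DMA was at 8.25 FPKM (4.82 to 11.7) in high pigs and 14.6 FPKM (8.22 to 20.9) in low pigs, and SLA-DMB at 11.8 FPKM (7.65 to 15.9) in high pigs and 19.9 FPKM (12.3 to 27.5) in low pigs. SLA-DOA, which modulates DM, was at 0.361 against 0.910 FPKM, and SLA-DOB, its partner, at 1.10 against 0.787 FPKM. These rows were below the filter with overlapping intervals. A further row, which the file calls SBAB-554F3.4 and the table of Ensembl identifiers HLA-DOB, was above the filter at 1.14 against 1.28 FPKM, so no 1 direction can be given for DOB. Over the whole list of class II chains and editors, with 8 of 9 genes in the file, 7 had the lower value in high pigs (SLA-DOB, by the row of that name, did not), 3 had separate intervals, and the median difference was -0.90. List medians cover all genes with an estimate, also those under the filter. Over the tested genes alone this one was -1.13. Of all tested rows, 67.7% had the higher value in low pigs and 0.458% had separate intervals. The counts of this list and of those below stand beside these shares.

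Endosomal processing genes, which cut proteins for class II loading, had 6 of 7 genes in the file. All 6 were lower in high pigs, 0 had separate intervals, and the median difference was -0.53. Cathepsin S, CTSS, which trims the invariant chain, was at 19.8 FPKM (13.3 to 26.3) in high pigs and 32.6 FPKM (20.8 to 44.4) in low pigs. Cathepsin H, CTSH, the 1 gene of the list past a 2-fold ratio, had 2.36 FPKM (1.13 to 3.60) in high pigs and 5.11 FPKM (1.34 to 8.88) in low pigs. IFI30, a lysosomal thiol reductase, was at 4.21 against 8.05 FPKM.

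The class I lists had medians nearer to that of all tested rows than the class II list. In the list of class I chains, B2M included, with 6 of 8 genes in the file, 5 were lower in high pigs and the median was -0.20. All 10 heavy chain rows of the file, which include names outside that list, had overlapping intervals and ratios of low over high from 0.884 to 1.50. The 3 class I-like genes in the file, MR1, CD1D (so named in the file, CD1B in the table of Ensembl identifiers) and FCGRT, had a median of -0.26 (-0.36 over the tested genes). SLA-10 had 125 FPKM (89.5 to 161) in high pigs and 188 FPKM (106 to 271) in low pigs, and SLA-3 had 44.1 FPKM (31.0 to 57.1) against 62.0 FPKM (39.7 to 84.3). SLA-10 and SLA-3 had the largest ratios of the heavy chain rows. SLA-P1, the most abundant of those rows in high pigs, was at 153 against 165 FPKM. SLA-10, SLA-3 and SLA-P1 were named after their values were seen. Of the 10 heavy chain rows, 9 were lower in high pigs as deposited and 7 after either scaling, when SLA-P1 and a row of SLA-8 turned. Many heavy chain genes resemble each other in sequence, so reads may be shared between some of these rows. In the peptide loading list 8 of 9 genes were lower in high pigs as deposited, with a median of -0.26, but TAP2 turned after either scaling and CANX after quantile normalization. TAPBP, the tapasin that bridges the transporter and class I molecules, had 11.5 FPKM (7.31 to 15.7) against 14.7 FPKM (8.66 to 20.8).

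Proteasome genes allowed the immune subunits to be set beside the standard ones. The immunoproteasome list had 4 of 5 genes in the file, all lower in high pigs, with a median of -0.35. Of the activator subunits, PSME1 was at 50.4 against 57.8 FPKM and PSME2 at 20.9 against 26.5 FPKM. The constitutive list had 5 of 7 genes in the file, all lower in high pigs as deposited with a median of -0.17, though 4 of the 5 turned after quantile normalization, among them PSMB6. PSMB6, the subunit that PSMB9 replaces, was at 85.2 FPKM (60.5 to 110) in high pigs and 93.8 FPKM (61.6 to 126) in low pigs, and PSMB7, another catalytic subunit, at 89.4 FPKM (64.0 to 115) against 112 FPKM (73.6 to 150). In both groups PSMB6 thus stood far above PSMB9, which was at 3.60 and 4.98 FPKM. Of both lists 0 genes had separate intervals, and PSMB10 and PSMB5 are not analysed here.

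Of the list of regulators of SLA genes 8 of 9 were in the file, 8 were lower in high pigs and the median was -0.21, with 0 separate intervals; NLRC5 is not analysed here. RFX5, a subunit of the complex that binds class II promoters, was at 7.77 against 8.43 FPKM. The interferon gamma list had 11 of 12 genes in the file, a median of -0.15 (-0.22 over the tested genes) and 0 separate intervals. IRF1, a transcription factor of the interferon response, had the largest difference of that list (-0.85), with 4.52 FPKM (2.87 to 6.16) against 8.95 FPKM (5.46 to 12.4). Interferon gamma itself, IFNG, was at 0.0470 against 0.119 FPKM with both lower bounds at 0. Costimulatory genes, which a T cell needs beside the antigen, had a median of -0.33 over 6 genes, and ICAM1, an adhesion molecule at 2.58 against 5.46 FPKM, had lower bounds of 0 in both groups.

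**Figure D3:**
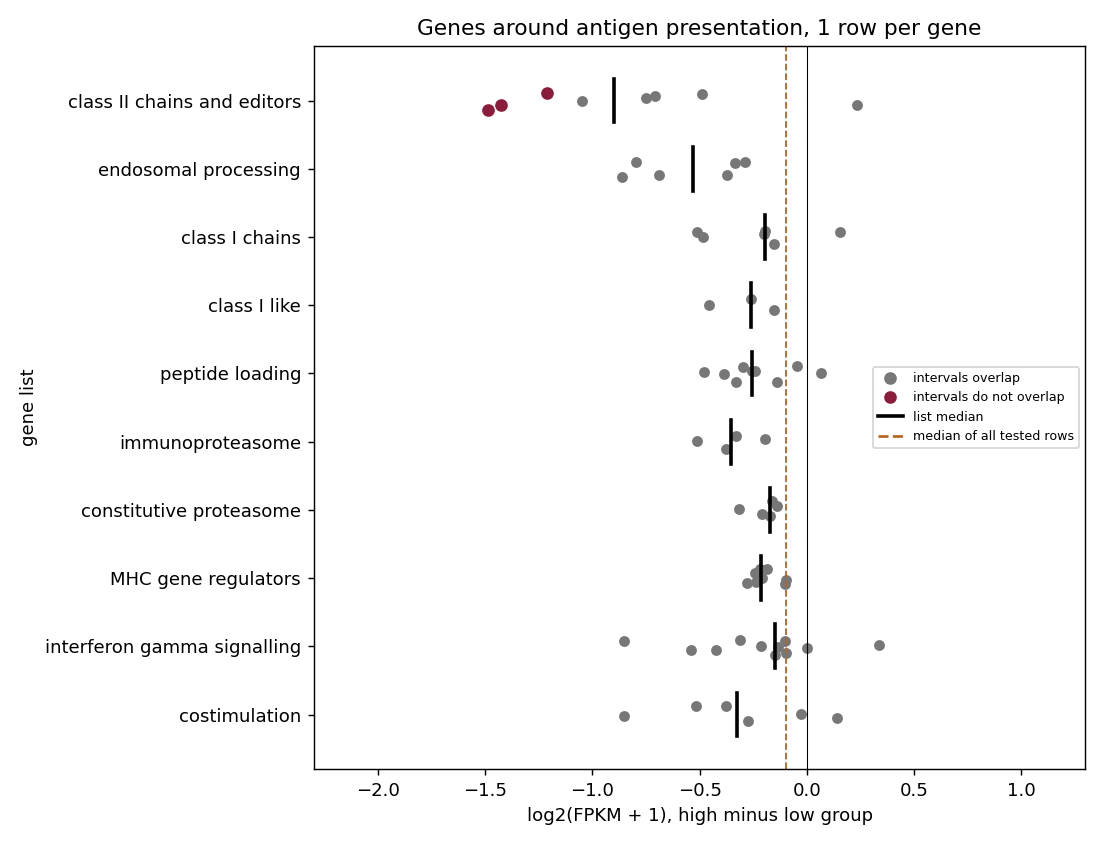
Difference of log2(FPKM + 1), high minus low group, for 1 row of each gene in 10 lists; black bars are list medians and the dashed line is the median of all tested rows, -0.10. The class II list has the lowest median, -0.90, and holds the points with separate intervals (red), while the medians of class I chains, loading and constitutive proteasome genes are -0.20, -0.26 and -0.17; TAP2, CANX, CD80 and 4 constitutive subunits are among the points that changed sign under a scaling.

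Markers of the cells that usually carry class II molecules were set beside these genes. Of 12 microglial markers 11 were in the file, 0 had separate intervals and 0 were at 0. All 11 were lower in high pigs, against 67.7% of tested rows. The summed level was 398 FPKM in high pigs and 568 FPKM in low pigs, and the ratios of low over high ran from 1.20 to 1.60, all below the ratios of the DR and DQ rows (2.28 to 2.96). AIF1, which microglia and macrophages make, had 47.6 FPKM (31.7 to 63.5) against 69.9 FPKM (43.8 to 96.0). Markers of perivascular macrophages, the cells along brain vessels, were low: 5 of 6 were in the file, their sum was 6.86 against 10.5 FPKM, and the ratios ran from 1.25 to 3.29. LYVE1 was at 0.393 against 1.28 FPKM and MRC1 at 0.878 against 1.95 FPKM, both with overlapping intervals.

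Lymphocyte and dendritic markers were near the lower end of the scale. The T cell chains CD3D, CD3E and CD3G were at 0.386 against 1.16, at 0.866 against 2.32 and at 0.314 against 1.05 FPKM. Of 9 T and NK cell markers 8 were lower in high pigs. Their summed level was 31.2 against 38.6 FPKM, of which CD247, level at 24.0 against 23.8 FPKM, made up most. The sum therefore says little of the other markers. Ratios of low over high ran from 0.990 to 3.51 with a median of 2.36, and 6 of the 9 were at least 2-fold higher in low pigs. All 9 had overlapping intervals, and 4 were tested rows. The median difference was -0.50 (-0.60 over the tested genes). B cell markers summed to 1.45 against 1.84 FPKM over 5 of 6 genes. Dendritic cell markers summed to 9.36 against 10.4 FPKM over 5 of 6 genes, mostly from FLT3, at 6.51 against 6.78 FPKM, and BATF3, at 2.71 against 3.45 FPKM. The other 3 were close to 0: XCR1 was at 0.0383 against 0.0899 FPKM, CLEC9A at 0.0558 against 0.0207 FPKM and CCR7 at 0.0450 against 0.0812 FPKM.

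Among markers of other tissues, those of fibroblasts, meninges and blood differed most between the groups. Markers of fibroblasts and meninges summed to 50.8 FPKM in high pigs and 152 FPKM in low pigs. Of the 6 genes 4 had separate intervals, against 0.458% of tested rows, and their median was -1.34. Markers of blood summed to 106 against 246 FPKM, with 1 of 5 separate and a median of -0.83 (-1.09 over the tested genes). HBB, a haemoglobin chain, made up most of that sum, at 102 against 239 FPKM. Endothelial markers summed to 42.8 against 51.5 FPKM with 0 of 6 separate, and astrocyte markers to 804 against 955 FPKM with 0 of 4 separate. Of the astrocyte markers, SLC1A3 and ALDH1L1 turned to the opposite sign after either scaling. Neuronal markers summed to 1166 against 1194 FPKM with 0 of 4 separate, and their median of -0.05 turned positive after either scaling. In the marker lists 0 genes with an estimate were at 0 in a group. The part of these cell types in the class II difference was not tested.

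**Figure D4:**
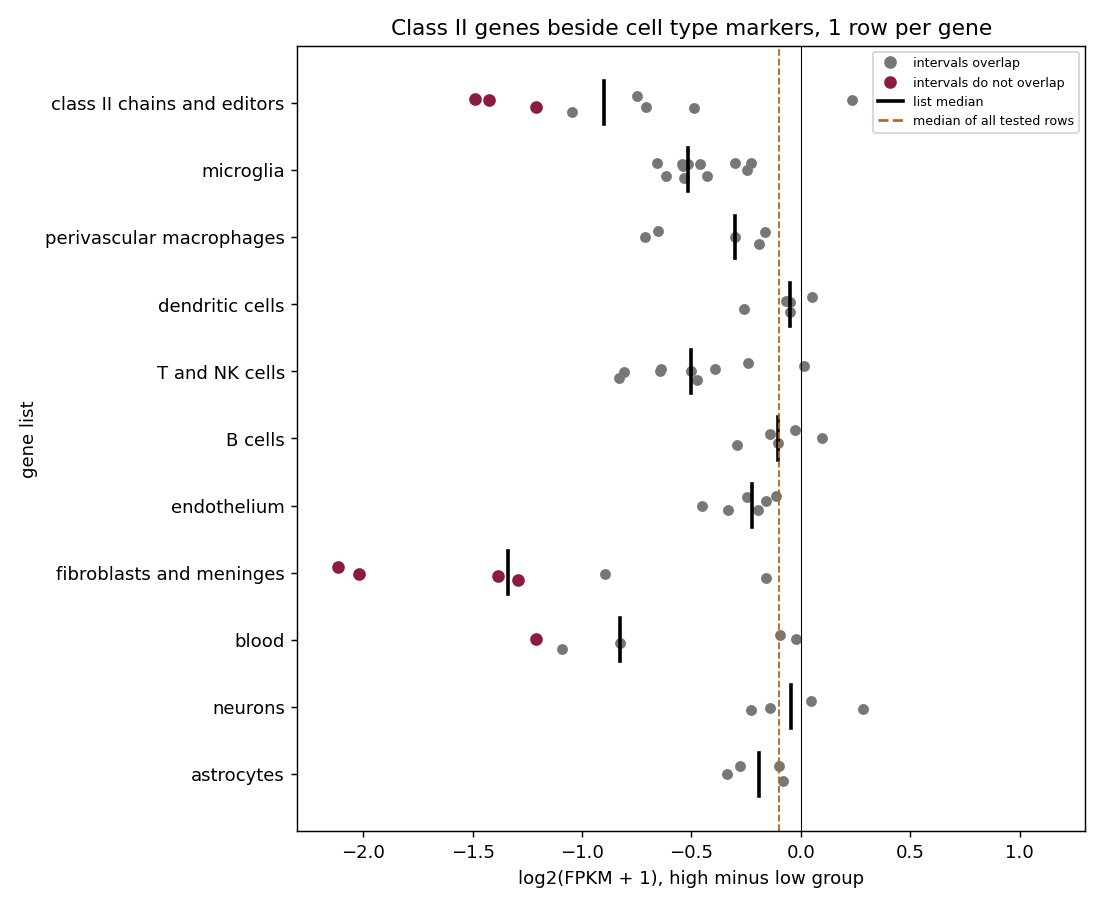
Difference of log2(FPKM + 1), high minus low group, for class II genes and for markers of 10 cell types, 1 row per gene; black bars are list medians, red points have separate intervals and the dashed line is the median of all tested rows, -0.10. Class II genes (median -0.90) lie between the microglial markers (-0.52) and those of fibroblasts and meninges (-1.34). Blood markers (-0.83) have the nearest median to theirs. Neuronal markers, whose median turned positive after scaling, lie near 0.

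Hypothalamic genes were looked up as a limited check of the labelled tissue. POMC was at 84.0 against 110 FPKM, AVP at 472 against 354 FPKM, OXT at 55.5 against 34.7 FPKM and PMCH at 167 against 91.8 FPKM, so transcripts of peptides made in this region were present in both groups. Other genes of the list were lower in level. AGRP was at 7.74 against 8.81 FPKM and HCRT at 4.16 against 1.78 FPKM. OTP was at 2.53 against 2.24 FPKM and SIM1 at 0.420 against 0.507 FPKM. Presence of these transcripts does not show that the samples held no neighbouring tissue. The list of 9 hypothalamic genes had 8 in the file, 5 with the higher value in high pigs and 0 with separate intervals. Its median was 0.27 (0.41 over the tested genes). GFAP, the astrocyte filament, had no estimate in either group and was left out.

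The named genes whose pair of values lay nearest to that of SLA-DQA1, by distance on the log2(FPKM + 1) scale over 2 values, were COL1A2, CGA and TAGLN. COL1A2, a fibrillar collagen chain, was at 15.2 against 41.4 FPKM (distance 0.036), CGA, the subunit that several pituitary hormones share, at 15.5 against 43.7 FPKM (distance 0.093), and TAGLN, a smooth muscle protein, at 16.1 against 37.7 FPKM (distance 0.18). With 1 value per group this likeness describes level and difference only.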

How the data were processed

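Hypothalamic RNA of 10 pigs was sequenced (paired-end TruSeq libraries, Illumina sequencing, per the labels' protocols). The submitters' processing notes name TopHat2 2.0.5, Bowtie2, Cufflinks 2.0.2 and build Sscrofa10.2, without roles or settings. The authors deposited 1 FPKM value per gene row and group; the bounds, a signal on the FPKM scale, were deposited with it and their confidence level is not given in the sources used here. How the 5 animals of a group were combined is not stated either.

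From these values ratios and differences of log2(FPKM + 1) were computed (Python 3.11.15, pandas 2.3.3). The 58 rows without an estimate in a group were left out, and 15281 rows averaging 1 FPKM or more were tested, which here means compared. A gene was called where the deposited intervals did not overlap. This is a description, not a test across animals, and the calling step was tested on simulated data. The simulated noise was set by the deposited bounds, so it could not measure variation between animals. For genes with several rows, a placed chromosome and then the highest mean decided. Members and 21 gene lists were chosen with earlier results of these data known. Named were all members, pathway genes with separate intervals or a 2-fold ratio, and a fixed set of pathway genes; other genes named were chosen after their values were seen. Alternatives were other pseudocounts (0.1 and 0.5), filters, scalings, a fold rule and other choices of rows.

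Depth per sample is unknown. Intervals of tested rows reached a median of 39.3% (high pigs) and 45.1% (low pigs) of the value to either side. Sequences of the genes are not shown here. A gene that the naming rule covers is not reported here.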

Additional observations from a re-analysis of the deposited data

How the results depend on the processing

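SLA-DQA1 and SLA-DQB1 kept separate intervals after median-of-ratios scaling, where their differences were -1.32 and -1.38. Under that scaling 55 of 15281 rows were called in place of 70. The other alternatives left the bounds of both genes as deposited, so their interval calls could not change there. With rows matched by file name only, a choice made after seeing the data, SLA-DQB1 drops out and 1 of 6 genes is called. The median of the 7 genes above the filter, -0.51, was -0.97 with the filter at 5 FPKM, where 4 genes remain and all 4 are lower in high pigs, -0.40 after median-of-ratios scaling and -0.32 after quantile normalization. Both scalings centre the tested rows, whose median was -0.10, near 0. TAP2 turned to 0.045 and 0.022 under them. Of the list medians, neurons turned to 0.062 and 0.19 under them, the constitutive proteasome to 0.0045 after quantile normalization, and T and NK cells to 0.014 with the filter at 5 FPKM, where fewer genes remain; otherwise the cause was not tested. Calls at a 2-fold ratio gave the same 2 of 7 genes, with 575 rows called in all. In all, 60 of 66 values of single genes under other settings kept direction and call or moved by at most 0.1. Of the rest, 2 reversed and 4 moved further. Many of the 66 could not change, since filters repeated the deposited values and pseudocounts alter neither sign nor call. The count is therefore no measure of stability. Quantile normalization changed values only and gave no calls, and neither did summed rows. No paired analysis was possible because animals of a group share 1 deposited value, and for the same reason no animal was left out in turn. What depth limits could not be measured.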
